A study of Mus musculus with 8 samples.

Results

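The MS4A genes encode small membrane proteins of blood cells, and 6 of them were followed here through resting B cells and T cells: Ms4a1, Ms4a4b, Ms4a4c, Ms4a6b, Ms4a6c and Ms4a6d. They were chosen by name, as B cell and T cell members of a single gene cluster, and were found by Ensembl identifier among the 53801 genes counted. The files hold 21 Ms4a genes in all, so that 15 others lie outside the set. The cells came from spleens of B6 mice, were sorted magnetically, and spent 2 hours in culture medium at rest. Ribosome profiling, which sequences the mRNA fragments protected by ribosomes (footprints), was done on B cells (libraries 1 and 3) and T cells (libraries 1 and 2), after 15 minutes in cycloheximide at 100 µg/ml. RNA-seq was done on B cells (libraries 1 and 3) and T cells (libraries 1 and 4), with no drug treatment given in the labels. The labels name no subset of either cell type and give neither age nor sex. They do not say that replicate libraries were made from different mice, so that the p-values measure only the spread between these libraries, which may be technical.

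MS4A proteins cross the membrane several times, with both ends inside the cell. The best known is CD20, the product of Ms4a1, which sits on B cells from the late precursor stages until plasma cell differentiation, lies near the B cell antigen receptor, has been tied to calcium entry, and is the target of therapeutic antibodies. Ms4a4b is known from mouse T cells, where its protein associates with the costimulatory receptor GITR and restrains proliferation. Ms4a2 is the beta chain of the high-affinity IgE receptor of mast cells and basophils. Several other genes of the family are best known from macrophages and other myeloid cells.

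The members all lie on mouse chromosome 19, in a run of 21 Ms4a genes that spans 679 kb (10962289 to 11640851 in GRCm38.p6, the assembly called mm10 in the submitters' notes). Ms4a1 (ENSMUSG00000024673, chromosome 19, 11249679 to 11266149) stands near the middle of the run. The other members sit together further along it. They are, in order, Ms4a4c (ENSMUSG00000024675, 11404717 to 11427246), Ms4a4b (ENSMUSG00000056290, 11443558 to 11463549), Ms4a6c (ENSMUSG00000079419, 11469353 to 11487182), Ms4a6b (ENSMUSG00000024677, 11518559 to 11530403) and Ms4a6d (ENSMUSG00000024679, 11586606 to 11604804). The RNA-seq kit named in the labels does not mark strand, and neither the counted feature nor the treatment of reads that match several places is known here. The span of the noncoding gene 4930526L06Rik, which had no count in any library, covers Ms4a1. The noncoding gene BE692007 lies inside Ms4a6c, and the pseudogene Gm5692 touches Ms4a4c. BE692007 had more RNA-seq counts than Ms4a6c, at 957 against 407 in B cells and 854 against 516 in T cells. Counts of these members, and the division of reads between close relatives such as Ms4a4b and Ms4a4c, are uncertain to that extent.

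RefSeq promoter windows of GRCm38.p6, 250 bases before to 50 after the annotated start, were at hand for 4 of the 6 members, and are shown because the neighbours Ms4a4c and Ms4a4b passed the footprint test below in opposite directions, and Ms4a6b, but not Ms4a6c, passed in mRNA. The start used for a window was the first base of the gene span given above for Ms4a4b and Ms4a6b. It lay 15 bases inside that span for Ms4a6c and 2944 bases inside it for Ms4a4c, whose window is therefore not the one before the outermost annotated start. Ms4a4b and Ms4a4c come first. Capitals mark the motifs found, namely the octamer ATTTGCAT, the purine box GAGGAA, the GATA-type AGATAG and the runt-type TGTGGT, each searched on both strands and printed as it stands on the gene's strand.
Ms4a4b, chr19:11443308-11443607, plus strand: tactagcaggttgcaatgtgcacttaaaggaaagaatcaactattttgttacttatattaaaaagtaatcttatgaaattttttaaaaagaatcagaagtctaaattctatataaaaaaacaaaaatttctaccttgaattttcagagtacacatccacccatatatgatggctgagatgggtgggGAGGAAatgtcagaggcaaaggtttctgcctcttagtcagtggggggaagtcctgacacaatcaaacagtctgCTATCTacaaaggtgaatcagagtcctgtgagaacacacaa
Ms4a4c, chr19:11407411-11407710, plus strand: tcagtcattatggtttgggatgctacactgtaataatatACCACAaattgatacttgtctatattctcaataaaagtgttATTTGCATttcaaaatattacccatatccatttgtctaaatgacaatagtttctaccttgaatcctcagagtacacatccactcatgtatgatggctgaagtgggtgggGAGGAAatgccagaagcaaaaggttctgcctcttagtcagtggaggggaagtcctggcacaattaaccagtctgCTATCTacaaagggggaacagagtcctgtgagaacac
The windows of Ms4a4b and Ms4a4c were identical at 226 of 310 columns of a global alignment (72.9%), and their longest shared run was 20 bases. Both held the purine box, with its first base at -64 and -61 from the start used, and both held the GATA-type motif on the opposite strand, beginning at 10 and 14. Ms4a4c also held an octamer at -170 and a runt-type motif at -211, on the opposite strand, which the Ms4a4b window did not hold. Among all 32851 promoter windows of the table, 28.3% held the purine box, 8.95% the GATA-type motif, 1.74% the octamer and 16.8% the runt-type motif.

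The windows of Ms4a6b and Ms4a6c held none of these motifs, nor the E-box CAGCTG (16.3% of all windows) or the core of the interferon-stimulated response element (3.44%), which Ms4a4b and Ms4a4c lacked as well. In these sequences capitals mark the longest run that both share.
Ms4a6b, chr19:11518309-11518608, plus strand: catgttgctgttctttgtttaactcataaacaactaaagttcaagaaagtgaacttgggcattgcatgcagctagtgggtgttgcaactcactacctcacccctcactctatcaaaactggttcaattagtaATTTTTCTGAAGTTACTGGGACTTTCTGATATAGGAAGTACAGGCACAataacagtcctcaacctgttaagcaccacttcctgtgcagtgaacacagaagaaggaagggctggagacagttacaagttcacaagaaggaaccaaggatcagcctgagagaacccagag
Ms4a6c, chr19:11469118-11469417, plus strand: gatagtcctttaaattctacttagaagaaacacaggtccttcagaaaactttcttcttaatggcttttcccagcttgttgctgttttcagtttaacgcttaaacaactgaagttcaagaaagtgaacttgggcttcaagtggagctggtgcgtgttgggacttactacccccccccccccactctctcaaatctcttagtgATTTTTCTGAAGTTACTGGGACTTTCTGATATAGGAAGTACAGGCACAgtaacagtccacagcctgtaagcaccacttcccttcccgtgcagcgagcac
The shared run was 48 bases long. It began at -118 in Ms4a6b and at -49 in Ms4a6c, so that it lay at different distances from the annotated starts, and the whole windows were identical at 51.2% of the aligned columns. The windows of Ms4a4b, Ms4a4c and Ms4a6b held no CG dinucleotide and that of Ms4a6c held 4, where the median window of the table held 7. A match of letters describes the window and does not show that a factor binds there.

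The RNA-seq libraries held 8945905 to 10050986 counts and the footprint libraries 136433 to 627833. Levels are given in CPM, read counts normalised to the library total after TMM scaling within each assay, and a single count stood for 1.45 to 7.25 CPM in footprints and for 0.101 to 0.112 CPM in RNA-seq. Exon lengths were not at hand, so levels are compared between libraries for the same gene and never between genes. The libraries carried the markers of their labelled lineage, and some also carried other cells' markers. Markers of T cells (16 genes) summed to 109 and 947 CPM in B cell RNA-seq libraries 1 and 3, against 8455 and 8892 in T cell libraries 1 and 4. Markers of macrophages and monocytes (18 genes) summed to 57.2 and 321 CPM in those B cell libraries, against 86.7 and 948 in the T cell libraries. By these markers B cell RNA-seq library 3 and T cell RNA-seq library 4 stood apart from their partners. Some other marker sums were higher in the RNA-seq libraries numbered 1. Markers of neutrophils (10 genes) summed to 95.7 and 19.4 CPM in B cell RNA-seq libraries 1 and 3, against 119.7 and 13.9 in T cell libraries 1 and 4. Mpo and Elane made up most of the library 1 sums (69.6 and 23.1 CPM in B cells, 91.3 and 22.4 in T cells). None of the other neutrophil markers was higher in library 1, except S100a8 in T cells (2.03 against 1.48 CPM). S100a9, for example, stood at 1.01 and 6.87 CPM in B cell libraries 1 and 3. Markers of plasma cells (5 genes) summed to 1902 and 653 CPM in the B cell libraries, against 1145 and 124 in the T cell libraries. In footprints T cell markers summed to 135 and 421 CPM in B cell libraries 1 and 3, the same order as in RNA-seq. They summed to 9138 and 6994 CPM in T cell libraries 1 and 2. For the other markers given here the order in B cells differed from that in RNA-seq. Neutrophil markers summed to 12.7 and 795 CPM in B cell libraries 1 and 3, and to 34.7 and 254 in T cell libraries 1 and 2. In the same order plasma cell markers summed to 1419 and 3367 CPM, and to 325 and 558. Markers of macrophages and monocytes summed to 824 and 263 CPM, and to 841 and 652. The members' mRNA differences are given below also with either B cell RNA-seq library 3 or T cell RNA-seq library 4 left out.

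Of the 21 Ms4a genes, 14 had at least 1 count in RNA-seq, 8 had at least 1 footprint count and 7 had no count in any library. Besides the 6 members, no Ms4a gene had more than 43 RNA-seq counts in a cell type. Ms4a7, known from macrophages, had 23 and 20 counts in B cells, against 1 and 16 in T cells, and was not called (log2 difference 1.41 ± 1.02 SE, adjusted p = 0.420). Ms4a3, known from myeloid progenitors, had 21 and 0 counts in the B cell libraries, against 36 and 1 in the T cell libraries. In both cell types its counts were almost all in library 1, the one with more Mpo and Elane of the neutrophil markers. The part of cells with these markers in the Ms4a3 counts was not tested. Ms4a4a had 29 counts over the B cell libraries and 17 over the T cell libraries, Ms4a14 17 and 3, Ms4a4d 10 and 17, Ms4a2 4 and 15, Ms4a8a 2 and 4, and Ms4a15 1 and 3. Those without a count were Ms4a5, Ms4a10, Ms4a12, Ms4a13, Ms4a18, Ms4a19 and Ms4a20.

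**Figure D1:**
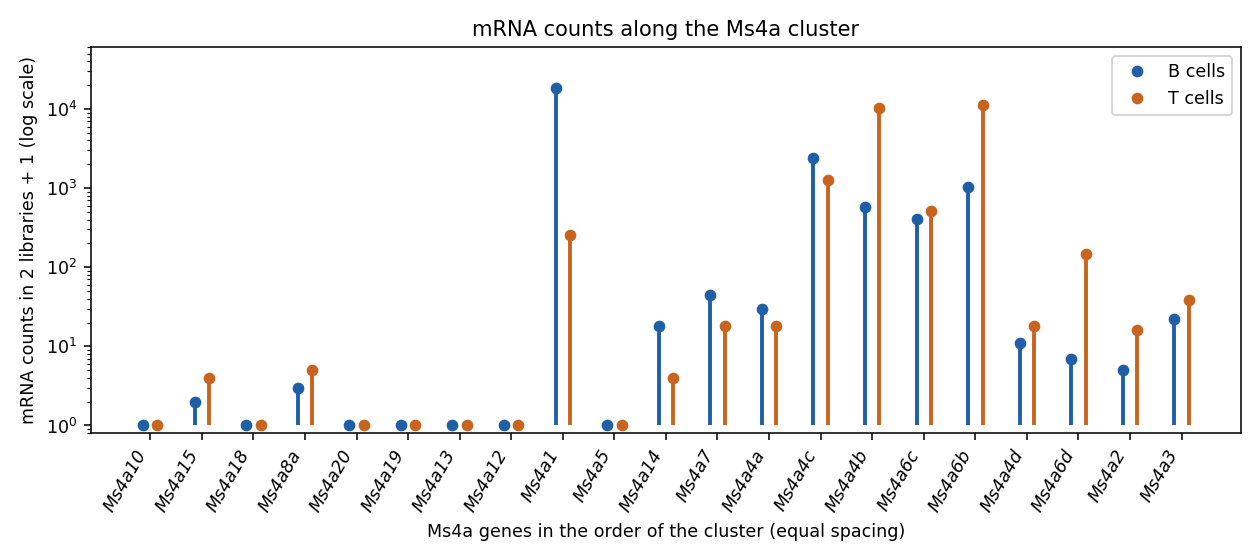
RNA-seq counts of the 21 Ms4a genes in their order along the cluster, each summed over the 2 libraries of B cells (blue, left) and of T cells (orange, right), plus 1, on a log scale. Of the members, Ms4a1 had 18435 counts in B cells and 257 in T cells, whereas Ms4a4b had 582 and 10335 and Ms4a6b 1028 and 11156.

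Other genes inside the run were counted too. Gm8369, a coding gene between Ms4a6c and Ms4a6b, had 148 ± 21.2 CPM in B cells and 127 ± 8.13 CPM in T cells (mean ± SD, n = 2 libraries each), and its difference of 0.22 ± 0.16 was not called. The noncoding gene AW112010, among the first Ms4a genes of the run, was lower in B cells, with 52.0 ± 11.5 CPM against 244 ± 12.9 CPM in T cells (log2 difference -2.23 ± 0.20, adjusted p = 0.00629). In footprints AW112010 was not called (-1.14 ± 0.48, adjusted p = 0.170). The genes that border the run, Ccdc86 and Oosp2, had 914 and 5 counts over the B cell RNA-seq libraries and 507 and 1 over the T cell libraries. The family's relatives on another chromosome were low. Tmem176a had 52 and 42 RNA-seq counts in B cells, against 89 and 78 in T cells (-0.73 ± 0.28, adjusted p = 0.157). Tmem176b had 96 and 60 in B cells, against 115 and 105 in T cells (-0.39 ± 0.32, adjusted p = 0.469).

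The first comparison asked how the members' mRNA differs between resting B and T cells. Ms4a1 was higher in B cells, Ms4a6b and Ms4a6d were lower, and Ms4a4b, Ms4a4c and Ms4a6c did not pass the test. Thus 1 of 6 members was higher and 2 were lower, where 9.40% of the 13929 genes tested were called higher and 9.06% lower in edgeR's quasi-likelihood test at an adjusted p of 0.05. Of the 2 lower members, Ms4a6d passed the filter on low counts through the T cell libraries alone, so that a lower value was likely. The members' median log2 difference was -1.81, against -0.0094 over all genes tested. All differences are B over T cells, with a standard error, n = 2 libraries a group, and p-values adjusted over all genes by the Benjamini-Hochberg method.

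Ms4a1 had 995 and 1042 CPM in B cell libraries 1 and 3, against 5.68 and 21.2 CPM in T cell libraries 1 and 4. The B cell libraries lay within 1.05-fold of each other and far above both T cell libraries, which differed by 3.73-fold. The log2 difference was 6.24 ± 0.74 (75.8-fold, adjusted p = 0.0106), the 66th largest towards B cells of the 13929 genes. With T cell library 4 left out it was 7.47 ± 0.36, and with T cell library 1 left out 5.59 ± 0.31, and it passed in both cases. Without B cell library 3 it was 6.21 ± 0.79 (adjusted p = 0.0138). With 1 library left in a group, that library is assumed to vary like those of the other group.

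Ms4a4b, the T cell protein that associates with GITR, had 4.14 and 59.5 CPM in B cell libraries 1 and 3, against 345 and 731 CPM in T cell libraries 1 and 4. The groups did not overlap, as was so for 61.2% of the genes tested, but the B cell libraries differed by 14.3-fold. Its log2 difference of -4.08 ± 1.28 did not pass (adjusted p = 0.0994). It passed when either B cell library was left out, at -3.17 ± 0.54 (adjusted p = 0.0214) for library 1 and -7.01 ± 0.73 (adjusted p = 0.00808) for library 3, fits that no longer hold the spread between the B cell libraries. Without T cell library 4 it did not pass (-3.46 ± 1.21, adjusted p = 0.134). Of the 16 T cell markers 3 passed in mRNA, all lower in B cells, where 9.06% of all genes were called lower. Among them were Lck (-3.23 ± 0.56) and Cd28 (-4.54 ± 0.73). In footprints all 16 were called lower, where 4.80% of all genes were. The Ms4a4b difference also passed in DESeq2 (-4.09 ± 1.54, adjusted p = 0.0372) and in limma voom (-4.97 ± 1.12, adjusted p = 0.0368).

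Ms4a6b had 33.4 and 79.6 CPM in B cell libraries 1 and 3, against 527 and 628 CPM in T cell libraries 1 and 4. The lowest T cell library was well above the highest B cell library, where 61.2% of the genes tested had no overlap of the groups. This gave a log2 difference of -3.35 ± 0.47 (10.2-fold lower, adjusted p = 0.0153), with -2.85 ± 0.29 when B cell library 1 was left out and -4.11 ± 0.32 when library 3 was. Without T cell library 4 it was -3.24 ± 0.49 (adjusted p = 0.0170).

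Ms4a6d was rare, with 0 and 6 counts in B cell libraries 1 and 3 and 61 and 84 counts in T cell libraries 1 and 4. These counts stood for 0 and 0.655 CPM in B cells and for 6.19 and 8.86 CPM in T cells, and the 0 allows up to 0.336 CPM in that library. Ms4a6d passed the filter on low counts through the T cell libraries alone, so that it was likely to differ in this direction. Its log2 difference was -4.45 ± 0.999 (adjusted p = 0.0442). It was -3.49 ± 0.66 without B cell library 1, whereas without B cell library 3 no count was left in B cells, so that no size is given. Without T cell library 4 it did not pass (-4.19 ± 1.06, adjusted p = 0.0628).

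Ms4a4c, the neighbour of Ms4a4b, had 124 and 141 CPM in B cells, against 47.1 and 83.8 CPM in T cell libraries 1 and 4. Both B cell libraries were above both T cell libraries, in mRNA where 61.2% of the genes tested had no overlap of the groups. The log2 difference of 1.02 ± 0.30 did not pass (adjusted p = 0.0838), but did so in DESeq2 (1.02 ± 0.34, adjusted p = 0.0132) and without T cell library 4 (1.48 ± 0.22, adjusted p = 0.0159). It did not pass with any other library left out (0.66 to 1.12, adjusted p = 0.111 to 0.217; 0.92 ± 0.36 without B cell library 3). With RNA-seq counts drawn down to footprint depth it was 0.22 ± 0.53 (adjusted p = 0.858).

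Ms4a6c had 13.6 and 31.2 CPM in B cell libraries 1 and 3, against 17.7 and 36.1 CPM in T cell libraries 1 and 4. Here the groups overlapped, and in each cell type the higher library was the one with more macrophage and monocyte markers. Its log2 difference was -0.26 ± 0.53 (adjusted p = 0.789), and the sign turned without B cell library 1 (0.22 ± 0.45) or without T cell library 4 (0.32 ± 0.50). Without B cell library 3 it was -0.98 ± 0.51 (adjusted p = 0.340). BE692007, the noncoding gene inside Ms4a6c, had 36.6 and 68.7 CPM in B cell libraries 1 and 3, against 27.8 and 61.1 CPM in T cell libraries 1 and 4. The part of BE692007, or of the macrophage and monocyte markers, in the level of Ms4a6c was not tested. Of the 18 markers, Fcgr1 and Marco had no count in B cell library 1, Fcgr1, Marco and Mrc1 had none in T cell library 1, and each had a count in the other RNA-seq libraries. Of the 18, 2 were called lower in B cells, Cx3cr1 (-3.64 ± 0.70) and Ccr2 (-3.12 ± 0.60), and none higher, a share near the 9.06% of all genes called lower.

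**Figure D2:**
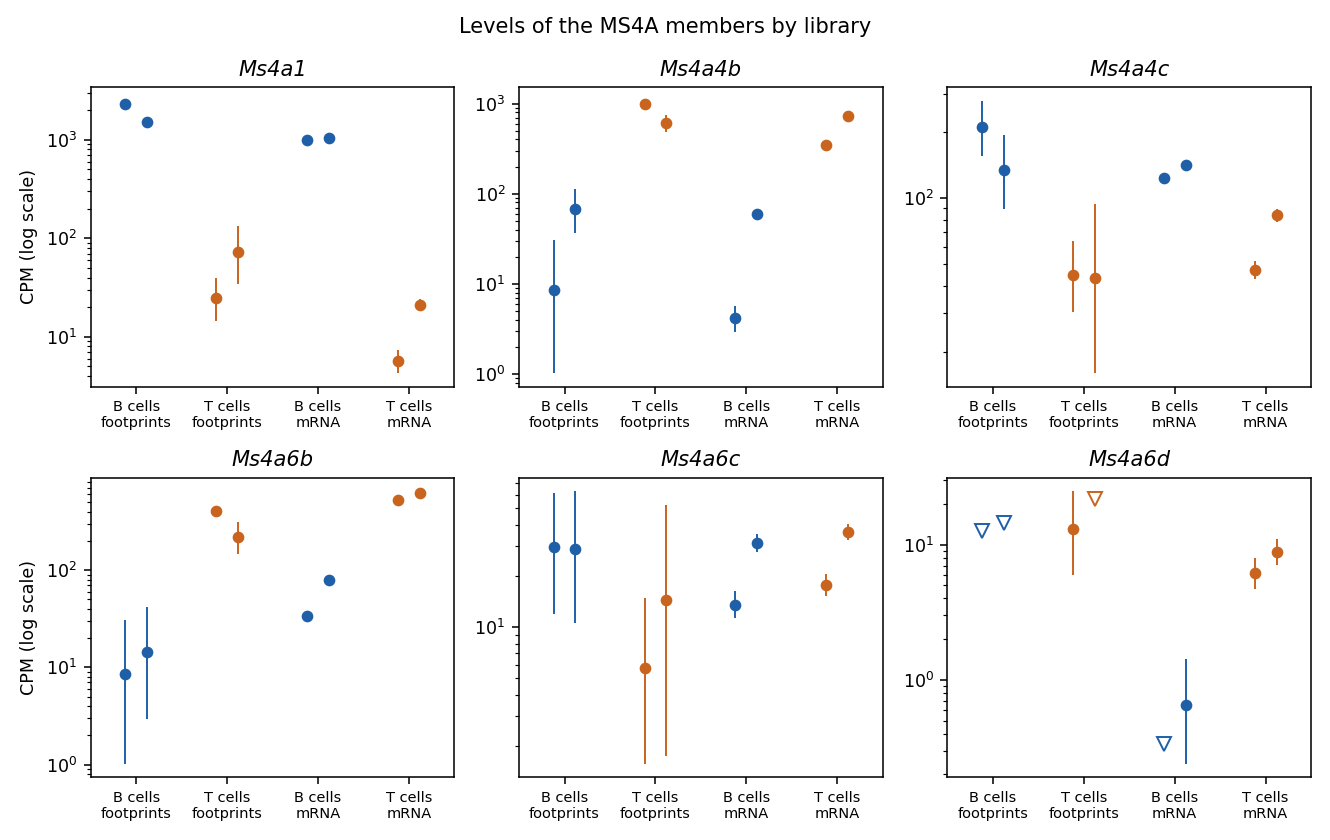
Level of each member in CPM (log scale) by library, in footprints and mRNA of B cells (blue) and T cells (orange), with a point per library and bars for the 95% Poisson counting interval. Open triangles mark libraries without a count, at the level that 3 counts would give. Ms4a1 and Ms4a4c were higher in B cell footprints and Ms4a4b and Ms4a6b in T cell footprints, whereas the Ms4a6c intervals were wide.

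The second comparison asked the same of ribosome footprints. Ms4a1 and Ms4a4c had more footprints in B cells and Ms4a4b and Ms4a6b had fewer. Ms4a6c and Ms4a6d had too few footprint counts to enter the test, so that 2 of the 6 members were higher, 2 were lower and 2 were not tested. Of the 4771 genes that entered, 8.38% were called higher and 4.80% lower. Because a gene enters when counts are sufficient in either cell type, a member that entered through 1 cell type was likely to differ. Ms4a1 had sufficient counts in both libraries only in B cells, and Ms4a4b and Ms4a6b only in T cells.

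Ms4a1 had 540 and 313 footprint counts in B cell libraries 1 and 3, against 17 and 10 in T cell libraries 1 and 2. On the CPM scale these were 2281 and 1499 in B cells, against 24.6 and 72.5 in T cells, with 95% counting intervals of 14.3 to 39.3 and 34.8 to 133 for the T cell libraries. They gave a log2 difference of 5.52 ± 0.65 (46.0-fold, adjusted p = 0.000349), the 36th largest towards B cells. With T cell library 1 left out it was 4.66 ± 0.90, and with library 2 left out 6.19 ± 0.91.

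Ms4a4c had 211 and 134 CPM in B cell footprints, against 44.8 and 43.5 CPM in T cell footprints. Both B cell libraries exceeded both T cell libraries, as was so in mRNA. In footprints the groups did not overlap for 52.1% of the genes tested. The log2 difference was 1.95 ± 0.46 (3.87-fold, adjusted p = 0.0136), but it did not pass without T cell library 1, the deepest (1.94 ± 0.79, adjusted p = 0.131), which leaves the 6 counts of T cell library 2.

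Ms4a4b had 8.45 and 67.1 CPM in B cell footprint libraries 1 and 3, against 996 and 609 CPM in T cell footprint libraries 1 and 2. As in mRNA, B cell library 3 was the higher of its pair, here on 14 counts against 2. Its log2 difference was -4.45 ± 0.68 (21.9-fold lower, adjusted p = 0.00114). Leaving out B cell library 3 gave -6.54 ± 0.83, and leaving out library 1 gave -3.60 ± 0.64. With all 8 libraries in a single fit it did not pass (-4.53 ± 1.29, adjusted p = 0.103).

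Ms4a6b had 2 and 3 footprint counts in B cell libraries 1 and 3, against 278 and 30 in T cell libraries 1 and 2. These gave 8.45 and 14.4 CPM in B cells and 402 and 217 CPM in T cells. The T cell libraries were both far above the B cell ones, where 52.1% of the genes tested in footprints had no overlap of the groups. The log2 difference was -4.78 ± 0.58 (27.5-fold lower, adjusted p = 0.000391), or -4.24 ± 0.75 without T cell library 1. Ms4a6b entered this test through the T cell libraries alone, so that it was likely to differ in this direction.

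The rarer members had few footprint counts. Ms4a6c had 7 and 6 footprint counts in B cells, against 4 and 2 in T cells. With no filter on low counts its log2 difference was 1.80 ± 0.93 (adjusted p = 0.372), which did not pass. Ms4a6d had no footprint count in B cells, against 9 and 0 in T cells. A count of 0 allows up to 12.7 and 14.4 CPM in the B cell libraries, which is as much as the 13.0 CPM of T cell library 1.

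**Figure D3:**
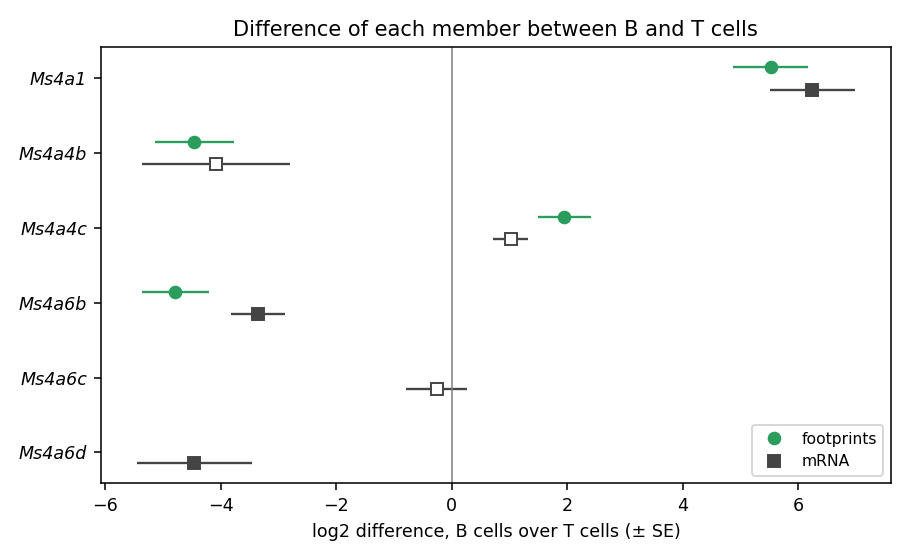
Log2 difference of each member, B cells over T cells, with its standard error, in footprints (green circles) and in mRNA (dark squares). Filled symbols passed the test at an adjusted p of 0.05 and open ones did not; Ms4a6c and Ms4a6d were not tested in footprints. Ms4a1 stood at 5.52 in footprints and 6.24 in mRNA, and Ms4a6b at -4.78 and -3.35.

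The mix of members within a library shows the same contrast without any scaling between libraries. Of the counts of the 6 members together, Ms4a1 took 89.9% and 86.0% in B cell footprint libraries 1 and 3 (95% Wilson intervals 87.2 to 92.0 and 82.0 to 89.2), against 1.65% and 7.58% in T cell libraries 1 and 2 (1.04 to 2.63 and 4.17 to 13.4). In RNA-seq it took 85.1% and 76.9% in B cell libraries 1 and 3, against 0.599% and 1.40% in T cell libraries 1 and 4. These are shares of counts and not of molecules, since the lengths of the mRNAs differ. They cover counting error only. The ratio of Ms4a4c to Ms4a4b counts separated the cell types as well, at 29.8 and 2.38 in B cell RNA-seq libraries 1 and 3, against 0.136 and 0.115 in T cell libraries 1 and 4. In footprints that ratio was 25 and 2 in B cells, against 0.0450 and 0.0714 in T cells. The B cell libraries with the lower ratio were those numbered 3, which held more Ms4a4b.

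How far the lineage members were seen in the other cell type was set beside the markers of that lineage. In B cell RNA-seq libraries 1 and 3, Ms4a4b stood at 0.770% and 11.1% of its mean T cell level. The median of the 16 T cell markers stood at 0.743% and 10.4% in the same libraries, so Ms4a4b followed them in both. Ms4a6b stood at 5.78% and 13.8%. In library 1 that was above the highest of the 16 markers (5.45%), by less than its counting error. In library 3 it was inside their range of 7.14% to 15.9%. The counts of Ms4a6b per count of Ms4a4b were 8.05 and 1.34 in B cell libraries 1 and 3, against 1.53 and 0.860 in T cell libraries 1 and 4.

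In footprints Ms4a6b stood at 2.73% and 4.64% of its T cell mean in libraries 1 and 3 of B cells, on 2 and 3 counts, inside the range of the T cell markers (0 to 10.5% and 0 to 16.7%). Ms4a4b stood at 1.05% and 8.36%, where the marker medians were 1.22% and 5.15%. In the other direction Ms4a1 stood at 0.558% and 2.08% of its B cell mean in libraries 1 and 4 of T cell RNA-seq, beside 0.674% and 1.57% for the median of 12 B cell markers. In T cell footprint libraries 1 and 2 it stood at 1.30% and 3.83%, beside 1.48% and 4.60%. Ms4a1 thus lay inside the range of the B cell markers in each T cell library. The part of B cells among the sorted T cells, or of T cells among the sorted B cells, in these levels was not tested. In bulk libraries, fewer cells that hold an mRNA and less mRNA per cell cannot be told apart.

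**Figure D4:**
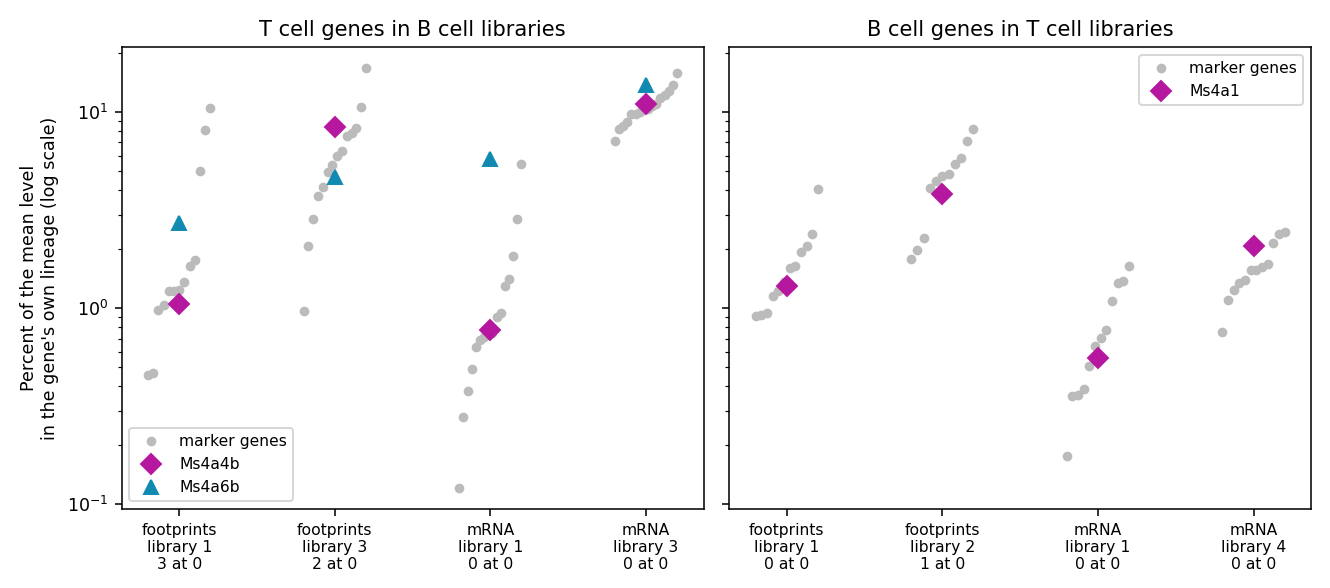
Level of T cell genes in B cell libraries (left) and of B cell genes in T cell libraries (right), as a percent of the gene's mean level in its own lineage (log scale), by assay and library. Grey points are marker genes, and those without a count are given as a number under the axis. Ms4a4b and Ms4a1 lie among the markers. Ms4a6b, at 5.78%, lies just above the highest of the 16 markers (5.45%) in B cell mRNA library 1, by less than its counting error.

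Further comparisons placed the footprints of each member against its mRNA. Relative to the average gene, Ms4a6b had fewer footprints than its mRNA in B cells, and no other tested member passed in either cell type. The 16 T cell markers also lay low in B cells, with a median log2 difference of -1.34, against 0.014 over all genes. Of those markers 0 were called in B cells. The part of T cells among the sorted B cells in these values was not tested. In B cells 0 of the 6 members were higher and 1 was lower, where 12.2% and 13.0% of 4771 genes were called. In T cells edgeR called 0 of the 6, where it called 32.7% of all genes, and 1 member, Ms4a6b, had an unadjusted p under 0.05. DESeq2 and limma voom called none in T cells either. Ms4a6c and Ms4a6d did not pass the filter on low counts. With no filter they were tested and not called in either cell type, with Ms4a6c at 0.28 ± 0.59 in B cells and -1.85 ± 0.70 in T cells (adjusted p = 0.820 and 0.0705).

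Ms4a6b had 8.45 and 14.4 CPM in B cell footprints, against 33.4 and 79.6 CPM in B cell mRNA. The assays did not overlap, as was so for 66.0% of genes in B cells. The log2 difference of footprints over mRNA was -2.61 ± 0.75 (adjusted p = 0.0395). It rested on 5 footprint counts and on single libraries: it did not pass without B cell footprint library 1 (-2.25 ± 1.04, adjusted p = 0.177), without footprint library 3 (-2.97 ± 1.12, adjusted p = 0.118) or without RNA-seq library 3 (-1.80 ± 0.64, adjusted p = 0.120). In T cells its footprints were at 402 and 217 CPM, against 527 and 628 CPM of mRNA, again without overlap (70.7% of genes in T cells). There the log2 difference was -1.15 ± 0.47 (adjusted p = 0.0969), on 308 footprint counts.

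Ms4a1 lay at 0.63 ± 0.62 in B cells and at 1.25 ± 0.78 in T cells (adjusted p = 0.492 and 0.258). Without T cell RNA-seq library 4 the T cell value was 2.55 ± 0.68 and passed (adjusted p = 0.0369). Ms4a4c lay at 0.12 ± 0.36 in B cells and -0.86 ± 0.42 in T cells (adjusted p = 0.834 and 0.151). Ms4a4b lay at -0.10 ± 1.36 in B cells and 0.28 ± 1.04 in T cells (adjusted p = 0.970 and 0.875), the widest errors of the 4. In T cells the count of Ms4a6b per count of Ms4a4b was 0.403 and 0.357 in footprints, against 1.53 and 0.860 in mRNA, so that the assays did not overlap in this ratio.

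**Figure D5:**
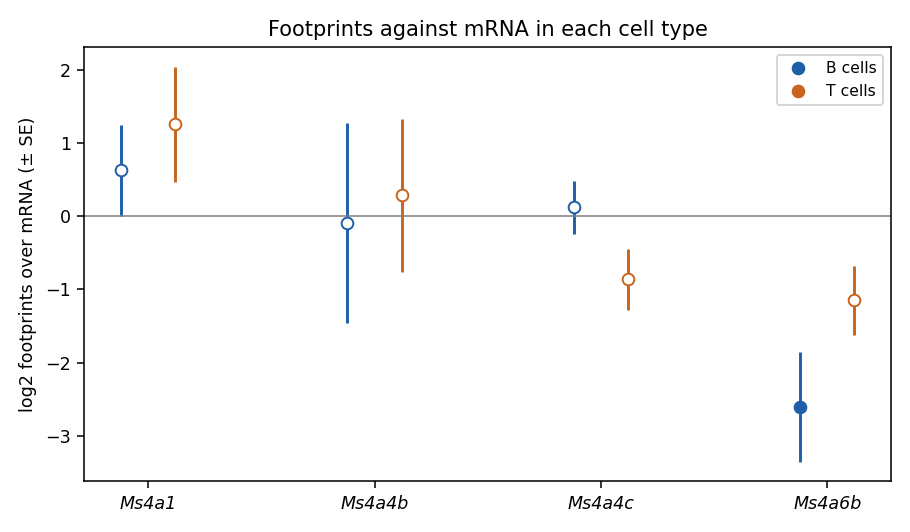
Log2 difference of footprints over mRNA with its standard error for the 4 members tested, in B cells (blue, left) and T cells (orange, right). A filled symbol passed at an adjusted p of 0.05. Ms4a6b in B cells, at -2.61, is the only filled symbol, and the Ms4a4b errors exceed 1 log2 unit.

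Translational efficiency, the ratio of footprints to mRNA, was then compared between B and T cells in a single model of the 8 libraries. In edgeR 0 of the 6 members passed, and 0% of the 4771 genes did. At an unadjusted p under 0.05 there were 0 members and 347 genes. DESeq2 called 4 genes and limma voom 0, with no member among them. The log2 differences, B over T cells, were -0.63 ± 0.99 for Ms4a1, -0.38 ± 1.71 for Ms4a4b, 0.98 ± 0.55 for Ms4a4c and -1.45 ± 0.93 for Ms4a6b (adjusted p = 0.894, 0.989, 0.711 and 0.741). Single libraries moved these values. Without B cell RNA-seq library 3 they were -0.56 for Ms4a1, 2.61 for Ms4a4b, 1.12 for Ms4a4c and -0.65 for Ms4a6b. Without T cell RNA-seq library 4 they were -1.92, -1.08, 0.45 and -1.64 in the same order. Over all libraries left out in turn Ms4a1 ran from -1.92 to -0.011, Ms4a4c from 0.45 to 1.31 and Ms4a6b from -2.01 to -0.65, and none passed. With errors of this size, equal efficiency was not shown for any of the 4.

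Genes tied to CD20 by function were followed from lists chosen with earlier results of these data known, so the counts called are a description only. The shares of all genes called higher and lower were 9.40% and 9.06% in mRNA and 8.38% and 4.80% in footprints. Of 16 genes of the B cell receptor complex and the surface proteins around it, 15 were higher in B cells in mRNA and 15 in footprints, the same 15, and none was lower. Their median log2 difference was 5.82 in mRNA and 4.37 in footprints, against 0.016 for all genes in footprints. Cd40, a costimulatory receptor, stood at 6.94 ± 0.35 and Cd24a, a surface glycoprotein, at 5.68 ± 0.33 in mRNA (adjusted p = 0.00209 and 0.00279). Fcer2a, the low-affinity IgE receptor, stood at 5.70 ± 0.55 and Cr2, a complement receptor of B cells, at 6.36 ± 0.66 in footprints. The tetraspanin gene Cd53 did not pass (-0.18 ± 0.19 in mRNA).

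Of 13 transcription factors that have been reported to act on the CD20 gene, 7 were higher in B cells in both assays and none was lower. They were Spi1, Irf4, Irf8, Pou2f2, Pou2af1, Tcf3 and Ikzf3. Pou2af1, a coactivator of octamer-binding factors, stood at 3.499 ± 0.17 in mRNA and 3.54 ± 0.47 in footprints, and Irf8 at 3.59 ± 0.23 in mRNA. Spi1, which encodes PU.1, a factor that binds purine-rich motifs, stood at 5.41 ± 0.76 in footprints. Ets1 (-0.63 ± 0.19) and Ikzf1 (-0.46 ± 0.16) did not pass in mRNA.

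Of 13 genes of lipid rafts and store-operated calcium entry, 12 were tested in mRNA, with 1 higher in B cells and 7 lower, beside 9.40% and 9.06% of all genes. Lyn, the Src family kinase of B cells, was the higher (4.39 ± 0.54 in mRNA and 4.201 ± 0.52 in footprints). Among the lower were Fyn, a Src family kinase of T cells (-2.39 ± 0.29 in mRNA), and the raft scaffold gene Flot1 (-1.11 ± 0.14). In footprints 9 were tested, with 1 higher and 3 lower, beside 8.38% and 4.80% of all genes. The lower ones included Lck (-3.62 ± 0.47) and Orai1, the pore of the calcium channel (-1.64 ± 0.46).

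Of 4 T cell receptors listed beside Ms4a4b, 3 were lower in B cells in mRNA and 4 in footprints. Tnfrsf18, which encodes GITR, stood at -1.46 ± 0.15 in mRNA and -3.14 ± 0.46 in footprints. Cd28 stood at -4.54 ± 0.73 in mRNA and at -5.22 ± 0.55 in footprints, and Icos at -7.18 ± 0.82 in footprints. Icos just missed the threshold in mRNA (-4.19 ± 0.99, adjusted p = 0.0502).

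The genes whose pattern over the 8 libraries was most like that of a member called in mRNA were ranked among 7349 genes by the root mean square difference of log2(CPM + 1), centred within each assay. Nearest to Ms4a1 were Bank1 (0.259), Cd79a (0.268) and Pax5 (0.269). Bank1 encodes a scaffold of B cell receptor signalling, Cd79a a signalling chain of that receptor and Pax5 the factor that maintains B cell identity. On the CPM scale Bank1 averaged 418 in B cell mRNA, against 6.63 in T cell mRNA. Nearest to Ms4a6b were Stk39 (0.219), a stress-responsive kinase gene, Hnrnpll (0.238), a splicing regulator of lymphocytes, and Apol7e (0.360). Hnrnpll averaged 2.03 CPM in B cell mRNA, against 36.4 CPM in T cell mRNA. Stk39 and Apol7e averaged 1.53 and 2.90 CPM in B cell mRNA, where Ms4a6b averaged 56.5 CPM. In B cell footprints Stk39, Hnrnpll and Apol7e averaged 0 CPM and Ms4a6b 11.4 CPM. At the levels of these genes the added 1 shrinks differences, so that they need not share the fold of Ms4a6b. Nearest to Ms4a6d were Hsd11b1 (0.509), Abhd8 (0.589) and Dnajc15 (0.650), all farther off than the neighbours of Ms4a1 and Ms4a6b. Ms4a6d averaged 0.327 CPM in B cell mRNA and 7.52 CPM in T cell mRNA, below the 10 CPM asked of the ranked genes. At such levels the added 1 shrinks its difference. Hsd11b1 averaged 17.6 and 86.2 CPM, so that these matches do not share the fold of Ms4a6d.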

How the data were processed

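Read counts per Ensembl gene in 8 libraries were used as the authors deposited them; they are whole numbers with no header and no normalization. The submitters' processing notes name HTSeq, TopHat, Bowtie2 and FastQC, with mm10 as the build; their versions, settings, counted feature and annotation were not given in the sources used here. Libraries were grouped by their titles, and 0 columns were left unused. Symbols came from the names table, which lacked 181 of the IDs, and coordinates and promoters from RefSeq GRCm38.p6. Within each group the libraries differed beyond counting noise, with a chi-square of 5.35 to 32.5 per degree of freedom.

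Counts were tested with edgeR 4.0.16 (R 4.3.3): quasi-likelihood test, TMM scaling, filterByExpr (minimum count 10, total 15), Benjamini-Hochberg adjustment over all genes, threshold 0.05. The 4 libraries of an assay gave 2 residual degrees of freedom and the model of 8 libraries 4; genes of that model also had to pass the filter in footprints. The code was tested on simulated data. Alternatives used DESeq2 1.42.0, limma 3.58.1 (voom), RLE scaling, other filters, abundant classes left out, thinned RNA-seq, a replicate block and each library left out. Members, lists and motifs were chosen with earlier results of these data known. Named genes were the members, the other Ms4a genes, Tmem176a and Tmem176b, the list genes of smallest p (2 in the list's main direction, 1 in the other), the 3 nearest patterns (mean of at least 10 CPM in each assay, pseudocount 1) and the bordering genes. Gm8369, AW112010, BE692007, and Cd53, Ets1, Ikzf1, Orai1, the Icos mRNA value and the further transcription factors were added after their values were seen. Protein sequences were not used here. Intervals and the limit of 3 counts for a count of 0 cover counting error only.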

Additional observations from a re-analysis of the deposited data

How the results depend on the processing

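The calls for Ms4a1 and Ms4a6b between B and T cells, in mRNA and in footprints, kept their direction under each alternative run. They passed in each run that kept 2 libraries in every group. The log2 differences were 5.59 to 7.47 and -4.11 to -2.74 in mRNA, and 4.66 to 6.19 and -5.21 to -4.24 in footprints. In footprints Ms4a1 entered the test through B cells and Ms4a6b through T cells, so that these directions were likely. In mRNA 3 of the 6 members passed, and 5 did in DESeq2, which added Ms4a4b and Ms4a4c; Ms4a6d did not pass with no filter beyond 1 count (-4.44, adjusted p = 0.0602). For footprints over mRNA in B cells, where 1 member passed, 0 did in limma voom and 0 with a mean CPM of at least 10, and 0 to 1 with a library left out. In T cells 0 passed, and 0 to 1 with a library left out. Signs that turned were those of values that passed no test. Ms4a6c in mRNA ran from -0.98 to 0.32 with a library left out. The translational efficiency of Ms4a4b was 0.076 in limma voom and ran from -2.54 to 2.61 with a library left out. Its footprints over mRNA in B cells were 0.48 in limma voom, 0.11 with no filter, 0.20 with a mean CPM of at least 10, 0.046 with the replicate block, and -2.15 to 2.89 with a library left out; in T cells they ran from -0.13 to 0.99. Ms4a4c footprints over mRNA in B cells ran from -0.25 to 0.44. The cause of these turns was not tested.

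The labels do not say whether libraries of the same number share mice. The footprint and RNA-seq deviations of B cell libraries 1 and 3 correlated at 0.090 over 2931 genes; for T cells, where only library 1 has the same number in both assays, the value was -0.062. The numbers were not treated as pairs in the main fits. These correlations cannot decide the question, since counting noise in the shallow footprint libraries lowers them. The T cell value also sets RNA-seq libraries 1 and 4 against footprint libraries 1 and 2. With the replicate block 0 members passed for translational efficiency, 1 for footprints over mRNA in B cells and 0 in T cells. Over all genes the counts called ranged more widely. They ran from 525 (RNA-seq thinned) to 3144 (DESeq2) around 2572 in mRNA, from 415 (without T cell library 1) to 629 and 918 (no filter) in footprints, from 495 to 2276 around 1203 for footprints over mRNA in B cells, and from 321 (replicate block) to 3143 around 1559 in T cells. Mean levels under plain totals or RLE scaling moved by more than the spread of the 2 libraries in 2 and 0 of 24 cases. Ms4a6c and Ms4a6d in footprints were left out by the filter on low counts and not called without it. In mRNA Ms4a6d had no value with a mean CPM of at least 10, and neither had one with RNA-seq thinned.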
